A study of Mus musculus with 9 samples.

Results

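Cycle 3 SRCs were compared with cycle 1 FRCs, which are both reserve cell populations taken from cultures of mouse myoblasts of the FVB/N strain. The comparison used 6 of the 9 poly(A) RNA-seq libraries of the study: the 3 libraries labelled SRCs Cycle 3 and the 3 labelled FRCs Cycle 1, chosen by those labels alone. The other 3 libraries, from the parental myoblasts, shared the estimate of replicate spread and are given as context. According to the labels' protocols, the reserve populations were grown through 2 passages in proliferation conditions between isolation and lysis, so all 6 libraries come from cells under growth conditions and not from cells in differentiation medium. No group is labelled with a genotype change, a transgene or a drug, and the labels give neither the age or number of animals nor a long form of FRC and SRC. The comparison changes the population (FRC or SRC) and the cycle (1 or 3) together, so these cannot be told apart in any result here. Nothing in the labels says whether the 3 libraries of a group came from separate cultures, so the p-values measure the spread between these libraries, which may be technical.

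Myoblasts are the dividing precursors of skeletal muscle fibres. When mitogens are withdrawn most of them leave the cell cycle, switch on myogenin and the sarcomere genes and fuse into myotubes. Some stay mononucleated and undifferentiated in the same dish, can return to growth when mitogens come back, and are called reserve cells, a culture counterpart of the quiescent satellite cells of muscle. Myod1 and Pax7 encode transcription factors that mark this lineage, and the products of the Cdkn2a and Cdkn2b genes restrain cyclin-dependent kinases and, through p19ARF, sustain p53 activity.

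The 6 libraries held 13012996 to 14312598 reads assigned to genes, and 3 reads corresponded to between 0.2096 and 0.2305 CPM in them (reads of a gene per 1000000 reads assigned to genes). The markers checked against the myoblast label were Myod1, Pax7, Des and Cdh15, all present in every library, while Myf5 had 1 read over all 9 libraries. The first principal component of the log2 CPM values took 59.3% of the variance and placed the SRC libraries at 42.08 to 45.08, the FRC libraries at −22.76 to −19.21 and the parental libraries at −23.65 to −23.02. Reads that did not align numbered 3409056 to 3458510 in the SRC libraries and 2673008 to 2987594 in the FRC libraries, and the part of this difference in the results was not tested. Replicates of a group differed from each other by more than counting noise, with a chi-square per degree of freedom of 3.81 to 7.47, and none was a copy of another. The listed markers of other tissues at 0 reads in the 6 libraries included Cldn5, Emcn, Kdr and Tie1 of 10 endothelial markers, Adgre1, Itgam, Lyz2 and Cd3e among 14 blood markers, Sox10 and S100b among 12 glial and neural markers, Tnmd and Kera among 7 tendon markers, Plin1 and Lep among 8 adipocyte markers, and Dpp4, Lum and Tcf21 among 13 fibroblast markers. Those genes were named for having no reads, and other members of the same lists had reads. Summed over a list, the endothelial markers reached 2.57 to 3.92 CPM in the FRC and 2.13 to 3.24 CPM in the SRC libraries, and the blood markers 6.29 to 7.05 and 7.32 to 7.99 CPM, with 0 of 2 tested members of either list called. The fibroblast list summed to 316 to 409 and 306 to 332 CPM (2 of 5 tested members rose), the glial and neural list to 239.6 to 301 and 291 to 305 CPM (3 of 5 rose), the tendon list to 30.7 to 31 and 27.4 to 28.3 CPM (1 of 2 fell) and the adipocyte list to 33.2 to 37.4 and 47 to 54.3 CPM (2 of 3 rose). Of all tested genes 15.5% rose and 18% fell. Among the 5 tested glial and neural members, 1 could be tested only through the SRC libraries, which fixes its direction. The part of cells of other tissues in the results was not tested.

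Of 12540 genes with enough reads to be tested, 4199 differed between the SRCs and the FRCs at an adjusted p below 0.05 (33.5% of those tested), 1940 of them higher in the SRCs (15.5%) and 2259 lower (18%). The p-values come from the quasi-likelihood test of edgeR and were adjusted after Benjamini and Hochberg over all tested genes. Genes below 0.05 are said to have risen or fallen in the SRCs. Most of these differences were small, with a median absolute log2 difference of 0.38, but 819 genes changed at least 2-fold (6.53%), 351 upwards (2.8%) and 468 downwards (3.73%). With only genes above 5 CPM in at least 3 libraries kept, the at least 2-fold counts were 411 in all, 180 upwards and 231 downwards. The falls reached further than the rises: 64 genes fell at least 16-fold and 13 rose at least 16-fold. For 5370 genes (42.8%) the ranges of the SRC and the FRC libraries were apart, and 3976 of the 4199 called genes were among them. The median log2 difference over all tested genes was −0.00028. CPM values are not scaled by gene length, so levels are compared for the same gene between libraries and never between genes.

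**Figure D1:**
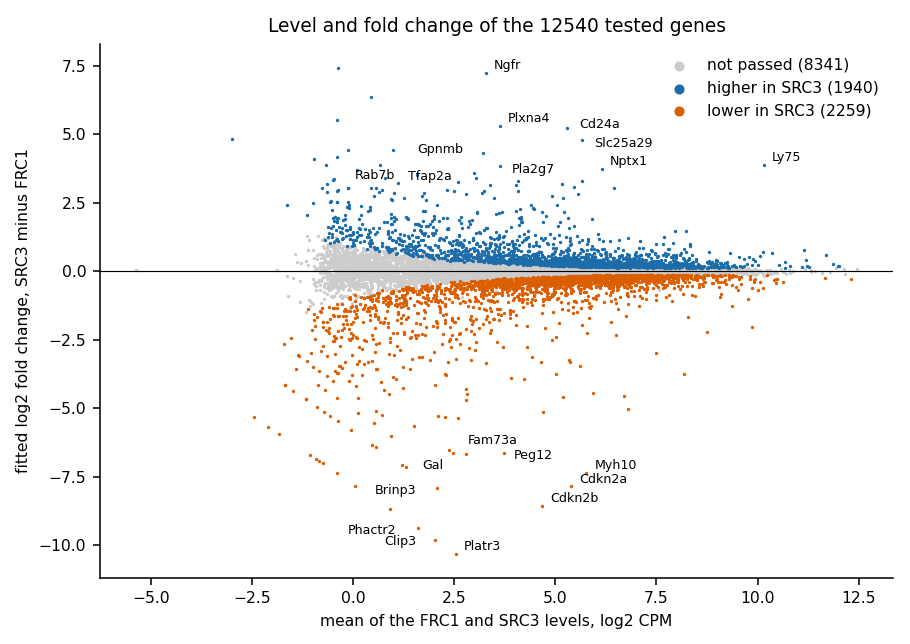
Each point is 1 of the 12540 tested genes, with the mean level of the cycle 1 FRCs (FRC1) and cycle 3 SRCs (SRC3) in log2 CPM on the horizontal axis and the fitted log2 fold change of SRCs minus FRCs on the vertical axis, coloured by whether the gene rose, fell or did not pass at an adjusted p of 0.05, with the 10 largest rises and falls named. The points furthest from 0 are falls, Platr3 and Clip3 at the bottom left without reads in the SRCs and Cdkn2b, Cdkn2a and Myh10 at higher levels.

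Several genes that the FRCs transcribed gave no read at all in the SRCs. Platr3, a long noncoding RNA, stood at 10.4, 12.9 and 11.6 CPM in FRC replicates 1, 2 and 3, from 485 reads, and at 0 in all 3 SRC libraries. Clip3, which encodes a cytoplasmic linker protein, stood at 7.87, 7.9 and 8.69 CPM in the FRCs and at 0 in the SRCs, and Phactr2, a regulator of phosphatase 1 and actin, at 6.59, 4.96 and 6.76 CPM and 0. All FRC libraries were thus above all SRC libraries, and against an assumed total of 3 reads over the SRC group the levels were at least 155-fold lower for Platr3 (adjusted p = 5.56e-12), at least 108-fold lower for Clip3 (adjusted p = 1.39e-11) and at least 80.8-fold lower for Phactr2 (adjusted p = 3.57e-10). Gli2, a transcription factor of the Hedgehog pathway, followed with 154 reads in the FRCs and 0 in the SRCs (at least 49.2-fold lower). Klhl13, a substrate adaptor of a ubiquitin ligase, had 86 reads against 0 and Lpcat2, a lysophospholipid acyltransferase, 63 reads against 0. In all, 16 genes with at least 20 reads over the FRC libraries had none in the SRCs. That count was 25 without SRC replicate 2, 24 without either of the other SRC libraries and 11 without any one FRC library. In bulk RNA, fewer cells of a kind and less RNA per cell cannot be told apart, here and in every result that follows.

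Messages with a sizeable level in the FRCs also fell to near 0. Myh10 encodes the heavy chain of non-muscle myosin IIB. Its level was 113, 102 and 111 CPM in the FRCs and 0.659, 0.771 and 0.532 CPM in the SRCs, and 132, 135 and 138 CPM in the parental cells. The FRC libraries lay a little below the parental ones and the SRC libraries 164-fold below the FRCs (log2 difference −7.36 ± 0.12 SE; adjusted p = 1.66e-20). Peg12, a paternally expressed imprinted gene, fell from 27, 26.6 and 25.1 CPM to 0.366, 0.231 and 0.152 CPM, a 101-fold difference (−6.65 ± 0.22 SE; adjusted p = 2.81e-15). Gal, the precursor of the neuropeptide galanin, fell 100.3-fold from 14.9, 7.97 and 10.2 CPM to 0.0733, 0.154 and 0.0759 CPM (adjusted p = 1.39e-09). Fam73a, also called Miga1 and known for mitochondrial fusion, fell 102-fold (adjusted p = 5.12e-13). Without SRC replicate 2 it had 568 reads against 1, a ratio of 367 with a 95% counting interval of 65.5 to 14500. Brinp3, a gene of the BMP and retinoic acid inducible neural family, had 346 reads in the FRCs and 1 in the SRCs, a ratio of 331 with a 95% counting interval of 59.1 to 13120. That read lay in SRC replicate 3, without which Brinp3 was at least 73.9-fold lower. None of these had a library of one group inside the range of the other.

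Among genes that reached 5 CPM, the largest rise by fold was that of Ngfr, the p75 neurotrophin receptor. It stood at 19.4, 11.3 and 27.5 CPM in the SRCs, at 0.379, 0 and 0 CPM in the FRCs and at 0.769, 0.535 and 0.781 CPM in the parental cells. The groups were far apart, but the size of the fold rested on FRC replicate 1, which held all 5 FRC reads: it was 150.0-fold with that library (adjusted p = 7.77e-05), and at least 184-fold without it. Plxna4, a semaphorin receptor subunit, rose 39.3-fold from 0.606, 0.489 and 0.712 CPM to 23.5, 24.1 and 24.4 CPM (5.30 ± 0.17 SE; adjusted p = 2.2e-15). Cd24a, a small glycosylated surface protein, rose 37.6-fold from 1.97, 2.59 and 1.5 CPM to 80.3, 60 and 88.8 CPM (5.23 ± 0.19 SE; adjusted p = 3.02e-10). Slc25a29, a mitochondrial carrier of basic amino acids, rose 28.1-fold from 4.32, 2.38 and 3.77 CPM to 99.6, 104 and 89.3 CPM (4.81 ± 0.13 SE). Each of these genes was below 6 CPM in every FRC and parental library and above 10 CPM in every SRC library. Ngfr and Plxna4 could be tested only through the SRC libraries, which fixes their direction.

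Ly75, which encodes the endocytic lectin receptor DEC-205, already had a sizeable level before it rose. It stood at 144, 150.0 and 147 CPM in the FRCs, at 145, 146 and 148 CPM in the parental cells and at 2161, 2063 and 2234 CPM in the SRCs, a 14.6-fold rise with the smallest adjusted p of the genes named here (3.87 ± 0.05 SE; adjusted p = 4.56e-22). The FRC and parental libraries occupied the same narrow range. Gpnmb, a transmembrane glycoprotein of lysosomes and melanosomes, rose 19.8-fold to 16.1, 15.3 and 22 CPM. Pla2g7, the secreted platelet-activating factor acetylhydrolase, rose 14.5-fold to 22.6, 19.6 and 27.1 CPM, and Nptx1, a neuronal pentraxin, rose 13.4-fold from 9.99, 9.72 and 9.97 CPM to 128, 126 and 145 CPM. Tfap2a, the transcription factor AP-2α, rose 12.2-fold, and Rab7b, a small GTPase of late endosomes, 11.3-fold. Genes read in the SRCs and never in the FRCs were fewer: 4 had at least 20 reads over the SRC group, led by Fam213b with 62 reads (at least 21.6-fold higher) and Syt6 with 31 (at least 10.8-fold higher). That count was 2 without SRC replicate 3 and 8 without FRC replicate 2 or without FRC replicate 3.

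**Figure D2:**
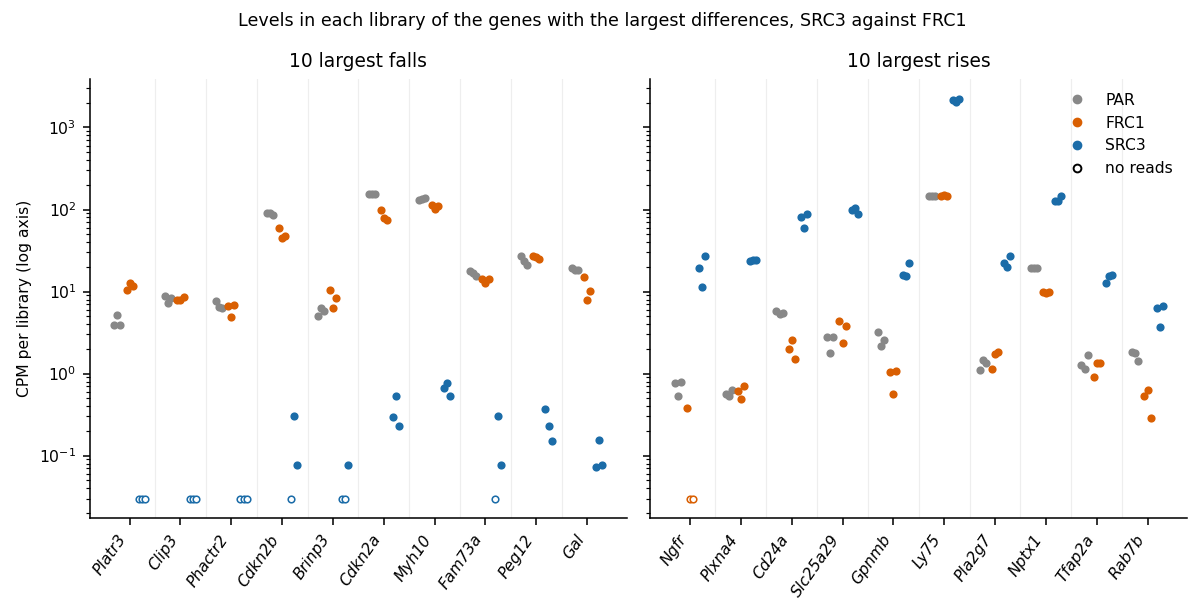
Points are the CPM values of the 10 largest falls (left) and the 10 largest rises (right) in each library of the parental cells (PAR), cycle 1 FRCs (FRC1) and cycle 3 SRCs (SRC3), on a log axis, with open circles for libraries without a read. Platr3, Clip3 and Phactr2 have no reads in the 3 SRC libraries, and Ly75 sits between 144 and 150.0 CPM in the 6 other libraries and between 2063 and 2234 CPM in the SRCs.

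The neighbouring genes Cdkn2b and Cdkn2a fell together almost to absence. Cdkn2a, which encodes the CDK4 and CDK6 inhibitor p16INK4a and, from another reading frame, the MDM2 inhibitor p19ARF, stood at 98.7, 79.1 and 74 CPM in the FRCs and at 0.293, 0.539 and 0.228 CPM in the SRCs. Cdkn2b, which encodes the related inhibitor p15INK4b, stood at 60.1, 44.7 and 48.1 CPM in the FRCs and at 0, 0.308 and 0.0759 CPM in the SRCs. The parental cells had 156, 156 and 156 CPM of Cdkn2a and 90.8, 91.3 and 86.3 CPM of Cdkn2b, so the FRCs were intermediate and the SRCs nearly empty. The fitted differences were 232-fold for Cdkn2a (−7.86 ± 0.20 SE; adjusted p = 4.34e-14) and 377-fold for Cdkn2b (−8.56 ± 0.28 SE; adjusted p = 5.54e-12). SRC replicate 2 held 4 of the 5 SRC reads of Cdkn2b, and without it the ratio was 1360 with a 95% counting interval of 244 to 53760. The counts are per gene, so reads of the p16INK4a and p19ARF transcripts were not separated.

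The genes around the pair differed in how they changed. Both genes lie on chromosome 4 of GRCm38, Cdkn2a at 89274471 to 89294653 and Cdkn2b at 89306299 to 89311039, both on the minus strand. On one side, the next gene with reads was Gm12606, a noncoding gene at 89235699 to 89273403 with too few reads to be tested. It had 2, 3 and 1 reads in the FRCs, 4, 0 and 3 in the SRCs and 0, 0 and 1 in the parental cells. Beyond it, Mtap, the methylthioadenosine phosphorylase gene at 89137122 to 89181081, had 3926, 4050 and 4083 reads in the FRCs and 4824, 4288 and 4795 in the SRCs, and rose 1.2-fold (adjusted p = 0.000158). On the other side, the next gene with reads was Gm12609, a noncoding gene at 89381957 to 89399880 that had too few reads to be tested: 2, 5 and 3 in the FRCs, 0 in all 3 SRC libraries and 6, 2 and 6 in the parental cells. Gm12610 after it, also too weak to test, had 3, 1 and 1 reads in the FRCs and 3, 4 and 1 in the SRCs. Further on, Dmrta1, a DMRT family transcription factor gene at 89679436 to 89694772, went from 0, 1 and 0 reads in the FRCs to 33, 45 and 30 in the SRCs, a ratio of 113 with a 95% counting interval of 19.8 to 4495. The 2 long noncoding genes beyond Mtap, Gm12602 and Gm12603, fell from 262, 275 and 283 to 90, 97 and 88 reads and from 182, 243 and 176 to 90, 86 and 96 reads, and kept part of their signal in every SRC library. Of the 68 annotated genes within 1 Mb of Cdkn2a, 23 had a read in any of the 9 libraries, and 10 could be tested: 2 rose (Mtap and Dmrta1), 5 fell (Cdkn2a, Cdkn2b, Hacd4, Gm12602 and Gm12603) and 3 did not pass (Focad, Klhl9 and Mrpl48-ps), where 15.5% of all tested genes rose and 18% fell. These genes were chosen for their place beside Cdkn2a. Dmrta1 could be tested only through the SRC libraries, which fixes its direction. Klhl9 had 1529, 1470 and 1444 reads against 1351, 1180 and 1347 (adjusted p = 0.0818).

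**Figure D3:**
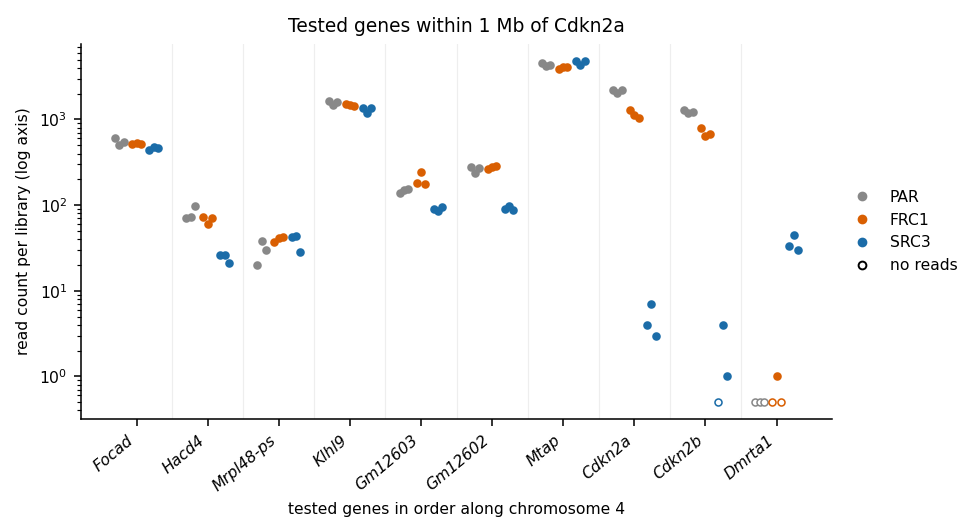
Points are the reads per library, on a log axis, of the 10 tested genes within 1 Mb of Cdkn2a, in their order along the chromosome, for the parental cells (PAR), cycle 1 FRCs (FRC1) and cycle 3 SRCs (SRC3), with open circles for libraries without a read. The SRC libraries hold 3 to 7 reads of Cdkn2a and 0 to 4 of Cdkn2b, while Mtap has 4288 or more in them and Dmrta1 has 30 to 45 there and at most 1 elsewhere.

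Sarcomere genes were lower in the SRCs as a group. Of 54 listed genes of the contractile apparatus 39 could be tested, and 32 of them fell and 4 rose, against 18% and 15.5% of all tested genes; 28 fell at least 2-fold, against 3.73%. The median log2 difference of the tested members was −2.30, beside −0.00028 for all genes. Of the 39, 14 passed the filter on low counts only through the FRC libraries, which fixes their direction. Among the 25 that passed without the FRC libraries 18 fell, 14 of them at least 2-fold, and 4 rose, with a median of −1.14. Summed over the whole list the levels were 2887 to 3025 CPM in the FRCs, 2262 to 2510 CPM in the SRCs and 2818 to 2834 CPM in the parental cells, so the SRC libraries were the lowest. The 30 members under 5 CPM in the parental cells, picked for that low parental level, summed to 214, 257.6 and 224 CPM in the FRCs, to 43.2, 76.5 and 43.0 CPM in the SRCs and to 27.8, 24.8 and 29.1 CPM in the parental cells. For those 30 the FRC libraries were the highest, and SRC replicate 2 was the highest of its group.

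Myog, the transcription factor myogenin that starts terminal differentiation, stood at 7.8, 10.8 and 8.33 CPM in the FRCs and at 1.47, 2.23 and 1.14 CPM in the SRCs, a 5.56-fold fall (−2.47 ± 0.22 SE; adjusted p = 2.88e-08). The parental libraries had 0.769, 0.383 and 0.568 CPM, below both. Myh7, the slow and cardiac β myosin heavy chain, fell 9.27-fold from 9.09, 12.5 and 10 CPM to 0.733, 1.85 and 0.835 CPM (adjusted p = 4.3e-09). Actn2, the Z-disc α-actinin, fell 14.4-fold from 3.41, 4.47 and 3.35 CPM to 0.146, 0.462 and 0.152 CPM (adjusted p = 8.47e-08), and Myh8, the perinatal myosin heavy chain, 9.46-fold from 5.68, 7.83 and 6.69 CPM to 0.0733, 1.7 and 0.38 CPM (adjusted p = 0.00014). These were sensitive to SRC replicate 2, the SRC library with the most sarcomere signal: without it Actn2 was 23.6-fold and Myh8 28.8-fold lower. Myh4, the fast IIb myosin heavy chain, had 63 reads in the FRCs and 1 in the SRCs, a ratio of 60.3 with a 95% counting interval of 10.4 to 2420, and without SRC replicate 2, which held that read, it was at least 13.5-fold lower. The myosin and actin genes share long near-identical stretches, and reads that aligned to several places were not assigned to genes, so their levels are uncertain.

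The list did not move as one. Trim54, a ubiquitin ligase that associates with microtubules and the sarcomere, rose 6.42-fold from 8.78, 9.23 and 11.3 CPM to 62.7, 62 and 64.1 CPM (adjusted p = 3.68e-15). Xirp1, an actin-binding protein of the intercalated disc and of regenerating muscle, rose 2.78-fold to 29, 27 and 32.3 CPM, and the other risen members were the skeletal myosin light chain kinase gene Mylk2 (2.31-fold) and the methyltransferase gene Smyd1 (1.69-fold). Ttn, the giant sarcomere scaffold titin, had 29.1, 33.7 and 36.6 CPM in the FRCs and 31.9, 38.4 and 32.4 CPM in the SRCs (adjusted p = 0.808). Tnnt2 and Tpm3 likewise did not pass (adjusted p = 0.172 and 0.842). The 4 risen and 3 unpassed members are named because they differ from the rest of the list, after their values were seen.

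**Figure D4:**
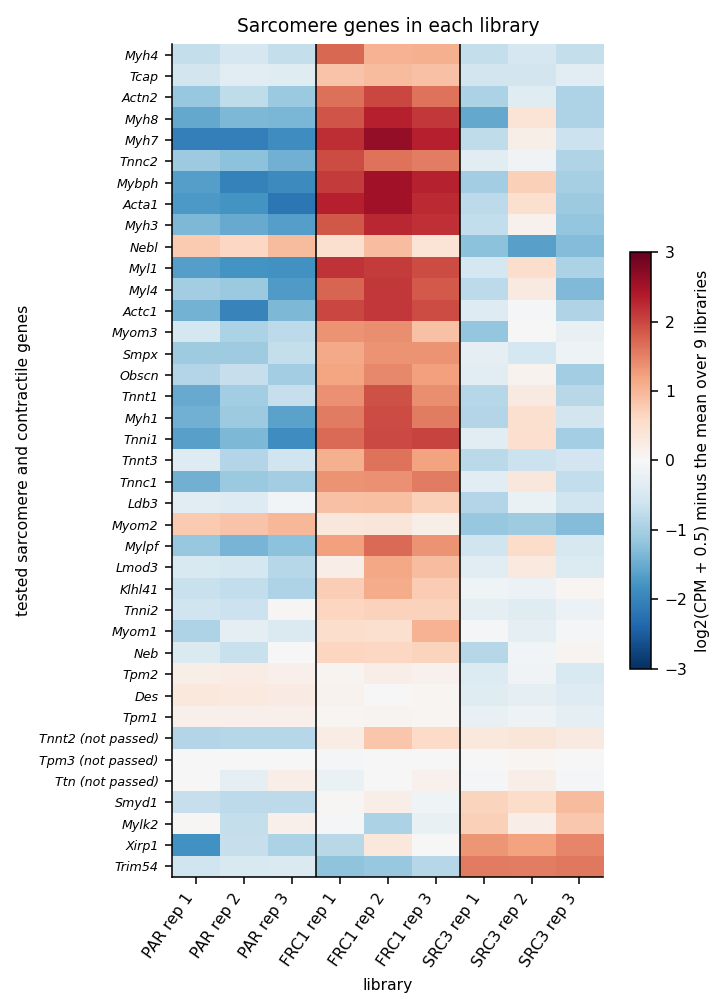
Each row is 1 of the 39 tested sarcomere and contractile genes, each column 1 library of the parental cells (PAR), cycle 1 FRCs (FRC1) or cycle 3 SRCs (SRC3), and the colour is log2(CPM + 0.5) minus its mean over the 9 libraries, from blue (low) to red (high). Most rows are red in the 3 FRC libraries only, several are paler in SRC replicate 2 than in the other SRC libraries, and Smyd1, Mylk2, Xirp1 and Trim54 at the bottom are reddest in the SRCs.

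The CArG box is the binding site of serum response factor (SRF), which with its cofactors drives both sarcomeric and smooth muscle actin genes. A CArG box was looked for on both strands in the 250 bases before each gene's start in the RefSeq promoter table (GRCm38.p6), which held 9063 of the tested genes. It was found in 6 of the 30 sarcomere genes with an entry (Acta1, Actc1, Ldb3, Myh4, Myom1 and Nebl) and in 6 of 23 smooth muscle and SRF contractile genes (Actg1, Cnn2, Fhl1, Fhl2, Myl9 and Vcl), against 1.47% of all 32851 promoters in the table. Among tested genes, it was found before 48 of the 1751 that fell (2.74%), 13 of the 1431 that rose (0.908%) and 69 of the 5881 that did not pass (1.17%). The windows of 3 genes that fell and carry the box are shown, because 2 come from the sarcomere list and 1 from the smooth muscle list, with the CArG box in capitals and any bases inside an annotated exon left off. The Acta1 window is chr8:123894776-123895025 on the minus strand, the Actc1 window chr2:114052888-114053125 on the minus strand and the Myl9 window chr2:156775214-156775419 on the plus strand, and the boxes end 63, 37 and 151 bases before the RefSeq start. The smooth muscle list was drawn up to hold SRF genes, so a larger share of boxes in it follows from that choice. A match of letters is a description and not a measured binding site.
Acta1: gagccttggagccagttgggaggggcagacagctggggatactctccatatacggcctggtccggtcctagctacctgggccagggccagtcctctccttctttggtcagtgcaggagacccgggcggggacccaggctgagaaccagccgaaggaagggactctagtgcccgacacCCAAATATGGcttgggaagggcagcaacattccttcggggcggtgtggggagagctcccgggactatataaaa
Actc1: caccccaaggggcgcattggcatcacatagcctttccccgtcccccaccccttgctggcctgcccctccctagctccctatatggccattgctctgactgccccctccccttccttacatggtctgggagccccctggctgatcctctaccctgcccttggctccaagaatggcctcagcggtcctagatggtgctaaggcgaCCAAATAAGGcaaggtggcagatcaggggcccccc
Myl9: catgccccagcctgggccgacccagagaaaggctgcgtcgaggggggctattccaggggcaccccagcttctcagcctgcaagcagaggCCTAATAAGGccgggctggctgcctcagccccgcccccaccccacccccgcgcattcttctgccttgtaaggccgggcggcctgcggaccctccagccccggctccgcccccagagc

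These 3 genes were chosen for having fallen and for carrying the box, so their falls say nothing about the box. Acta1, the skeletal α-actin, went from 33.6, 38 and 31.6 CPM in the FRCs to 3.44, 9.02 and 2.66 CPM in the SRCs, a 6.86-fold fall (−2.78 ± 0.33 SE; adjusted p = 0.00036). Actc1, the cardiac α-actin that is also made in young skeletal muscle, went from 19.8, 21.7 and 19.1 CPM to 3.37, 4.47 and 2.2 CPM, a 6.03-fold fall (−2.59 ± 0.17 SE; adjusted p = 4.43e-10). Myl9, a regulatory light chain of smooth and non-muscle myosin, went from 42.2, 28.6 and 38.2 CPM to 14.1, 22 and 10.5 CPM, a 2.34-fold fall (−1.23 ± 0.25 SE; adjusted p = 0.00779). In each the FRC and SRC libraries were apart, and in each SRC replicate 2 was the highest of its group.

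The smooth muscle and SRF contractile genes were lower in nearly every member. Of 27 tested among 31 listed, 23 fell and 1 rose (88.9% called, against 33.5% of all tested genes), with a median log2 difference of −0.47. Tagln, the actin-binding protein transgelin, stood at 169, 263 and 219 CPM in the FRCs and at 5.71, 11.1 and 2.96 CPM in the SRCs, a 33-fold fall (−5.05 ± 0.36 SE; adjusted p = 6.23e-05). Acta2, the smooth muscle α-actin, fell 23.3-fold from 173, 232 and 192 CPM to 7.69, 14.3 and 3.8 CPM (−4.54 ± 0.33 SE; adjusted p = 6.87e-05). Fhl1, a LIM-domain protein of muscle, fell 22-fold from 131, 116 and 104 CPM to 5.2, 8.24 and 2.51 CPM (−4.46 ± 0.25 SE; adjusted p = 6.85e-06). Compared with the parental cells, which had 110.4, 124 and 103 CPM of Tagln and 64.9, 73.5 and 62.9 CPM of Acta2, the FRCs lay above and the SRCs below. The 1 rise, of the smooth muscle myosin light chain kinase gene Mylk, was 1.75-fold from a low level (adjusted p = 0.0349) and did not pass under several other settings. Tagln and Acta2 are also used as markers of pericytes and smooth muscle cells. The 11 markers of those cells summed to 396 to 575 CPM in the FRCs and 74.6 to 85.2 CPM in the SRCs, with Higd1b and Kcnj8 at 0 reads in all 6 libraries, and with Cspg4 moving the other way, from 4.47, 9.72 and 9.26 CPM to 46.9, 47.2 and 62.6 CPM (6.63-fold higher; adjusted p = 2.42e-05). The part of such cells in the result was not tested.

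The regulators that define the myoblast lineage were lower in the SRCs by much smaller amounts. Of 29 tested myogenic regulators and fusion genes 13 fell and 5 rose (62.1% called, against 33.5% of all tested genes; median −0.13). Myod1, the myogenic transcription factor, stood at 785, 772 and 753 CPM in the FRCs and at 522, 559 and 536 CPM in the SRCs, a 1.43-fold fall (−0.51 ± 0.04 SE; adjusted p = 1.3e-08). Pax7, the transcription factor of satellite cells, fell 1.57-fold from 121, 106 and 114 CPM to 69.4, 75.7 and 72.8 CPM (−0.65 ± 0.06 SE; adjusted p = 9.23e-08). For both, the FRC libraries were close to the parental ones, at 773, 762 and 792 CPM of Myod1 and 136, 119 and 126 CPM of Pax7. Des, the muscle intermediate filament desmin, fell 1.31-fold, Cdh15, the muscle cadherin, 1.5-fold, and Chrna1, a subunit of the muscle acetylcholine receptor, 1.76-fold. Tmem8c, the membrane activator of myoblast fusion myomaker, fell 3.05-fold from 4.24, 2.73 and 3.7 CPM to 1.1, 1.46 and 0.911 CPM (adjusted p = 5.73e-05), and the RNA-binding protein gene Rbm24 fell 2.58-fold. Vcam1, an adhesion receptor found on satellite cells, had 160.0, 111 and 127 CPM against 132, 136 and 120.1 CPM and did not pass (adjusted p = 0.856), nor did Pax3 (adjusted p = 0.37) or the laminin receptor gene Itga7 (adjusted p = 0.13). The satellite cell list was mixed, with 7 of 24 tested members up and 6 down (54.2% called): Cd34 and Spry1, a feedback inhibitor of receptor kinase signalling, rose 2.36-fold and 2.24-fold, and the Notch target Hey1 fell 3.69-fold from 8.48, 7.34 and 7.12 CPM to 1.98, 2.08 and 2.13 CPM.

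Genes of DNA replication were slightly higher in the SRCs. Of 49 tested G1/S and replication genes 25 rose and 1 fell, against 15.5% and 18% of all tested genes, with a median log2 difference of 0.16 and none changed 2-fold. Gins1, a subunit of the replicative helicase, rose 1.67-fold from 12.8, 17.1 and 15.4 CPM to 24.8, 26 and 25.1 CPM (adjusted p = 5.52e-06). Pola1, the catalytic subunit of DNA polymerase α, rose 1.36-fold and Dtl, a substrate receptor that acts on licensing factors, 1.35-fold. The 1 fall was that of Ccne1, the G1/S cyclin E1, from 62.7, 60.2 and 62.9 CPM to 35.5, 34.3 and 39.3 CPM (1.7-fold; adjusted p = 1.09e-08). Mitotic genes showed no common direction, with 5 up and 6 down of 51 (21.6% called, against 33.5% of all tested genes), 3 up without SRC replicate 3 and 3 down without SRC replicate 1. Among them Smc4 and Ncapd2 of the condensin complex rose 1.23-fold and 1.22-fold and the spindle kinase gene Aurka fell 1.21-fold. Mki67, the proliferation marker Ki-67, had 257, 268 and 295 CPM in the FRCs and 257, 325 and 352 CPM in the SRCs and did not pass (adjusted p = 0.221).

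In the list of cell cycle inhibitors and pocket proteins, which also holds the cyclin gene Ccnd3, 10 of 27 members rose and 8 fell (66.7% called, against 33.5% of all tested genes). The largest changes were the falls of Cdkn2a and Cdkn2b. Cdkn1a, the CDK inhibitor p21, rose slightly from 107, 105 and 100.4 CPM to 127, 109 and 138 CPM (0.26 ± 0.07 SE; adjusted p = 0.00637). Ccnd3, the D-type cyclin prominent in muscle differentiation, fell 2.29-fold from 173, 139 and 155 CPM to 70.5, 66.3 and 67 CPM (adjusted p = 2.38e-11). Of 31 tested p53 target genes 13 fell and 5 rose (58.1% called; median −0.13), and the members with the largest change differed in direction. Psrc1, a microtubule-associated protein, fell 2.22-fold, the antiproliferative gene Btg2 2.21-fold, and Zmat3, an RNA-binding protein, 1.74-fold from 104, 96.5 and 90.9 CPM to 53.6, 52.6 and 60.6 CPM (adjusted p = 2.05e-08). Ccng2, cyclin G2, rose 1.9-fold (adjusted p = 0.000156).

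Targets of ATF4, the transcription factor of the integrated stress response, were mostly higher in the SRCs: 16 of 27 rose and 2 fell (66.7% called, against 33.5% of all tested genes; median 0.18), 4 of the rises being at least 2-fold. Only 1 fell without FRC replicate 1 or 3, or without SRC replicate 2 or 3. Because its upstream window holds the ATF4 target octamer TGATGCAA in both orientations, the promoter of Slc7a11 is shown, chr3:50443615-50443863 on the minus strand of GRCm38.p6 from RefSeq, with the octamers in capitals, ending 58 and 39 bases before the start.
Slc7a11: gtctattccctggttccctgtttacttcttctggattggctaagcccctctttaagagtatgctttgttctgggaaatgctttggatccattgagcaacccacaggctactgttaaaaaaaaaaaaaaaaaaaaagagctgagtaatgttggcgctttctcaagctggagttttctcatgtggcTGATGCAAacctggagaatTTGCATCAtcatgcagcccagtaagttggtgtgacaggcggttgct

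Slc7a11, the cystine import subunit of the system xc transporter, rose 2.26-fold from 34.5, 49.9 and 39.3 CPM to 89.2, 81.8 and 109 CPM (1.18 ± 0.15 SE; adjusted p = 0.000304). Searched on both strands, TGATGCAA stood in the 250 upstream bases of 6 of the 21 ATF4 target genes with an entry (Atf3, Chac1, Nupr1, Pycr1, Slc7a11 and Vldlr), against 0.791% of all 32851 promoters. The list was drawn up to hold ATF4 targets, so a larger share of octamers in it follows from that choice. Among tested genes, the octamer was in the upstream bases of 15 of the 1431 that rose (1.05%) and 8 of the 1751 that fell (0.457%), and again a match is only a description. Vldlr, a lipoprotein receptor, had the largest rise of the list, 4.53-fold from 13.1, 13.6 and 13.4 CPM to 64.8, 57.3 and 59.2 CPM (2.18 ± 0.08 SE; adjusted p = 8.96e-15). Stc2, a secreted glycoprotein, rose 2.57-fold and Trib3, a pseudokinase that restrains ATF4, 2.18-fold from 59.5, 62.4 and 58 CPM to 140.2, 143 and 109.5 CPM. The FRC libraries lay below the parental ones for Vldlr (29.2, 29.4 and 28.5 CPM) and Slc7a11 (66.7, 57.5 and 61.8 CPM), so the SRCs were above and the FRCs below the parental level for both.

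The chaperones and quality control genes of the endoplasmic reticulum rose in 14 of 29 tested members and fell in 3, by small amounts (58.6% called, against 33.5% of all tested genes; median 0.14). Without FRC replicate 1, 8 rose and 5 fell, and without SRC replicate 1, 8 rose. Atf6, a transmembrane stress sensor of this compartment, rose 1.61-fold from 101, 92.7 and 96.5 CPM to 156, 156 and 157 CPM (adjusted p = 1.39e-09), and Sel1l, an adaptor of the degradation complex, 1.39-fold. Dnajb9, a lumenal co-chaperone, went the other way from 31.6, 34.6 and 32.5 CPM to 27, 22.6 and 23.1 CPM (1.36-fold lower; adjusted p = 0.001). Heat shock proteins of the cytosol were lower more often than higher, with 16 down and 7 up of 42 (54.8% called). Cytosolic ribosomal protein genes hardly took part: 1 of 76 rose and 1 fell (2.63% called, against 33.5% of all tested genes).

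Genes of the respiratory chain were higher in the SRCs whether encoded in the nucleus or in the mitochondrion. Of 44 nuclear genes 25 rose and none fell (56.8% called, against 33.5% of all tested genes; median 0.15), and 15 rose without SRC replicate 1. Ndufb5 and Ndufs1, both of complex I, rose 1.24-fold and 1.21-fold. Summed over the nuclear list, the levels were 9858 to 10290 CPM in the FRCs, 11000 to 11580 CPM in the SRCs and 11030 to 11410 CPM in the parental cells. The SRC range thus overlapped the parental one, and the FRC libraries were the lowest. For the mitochondrially encoded list the sums were 9103 to 10850, 12770 to 15970 and 12430 to 12980 CPM in the same order. Of the 10 tested mitochondrially encoded subunit genes 6 rose and none fell, with a median of 0.63, and over all 13 tested genes of the mitochondrial genome 8 rose (median 0.60). mt-Cytb, cytochrome b of complex III, rose from 2684, 2668 and 2484 CPM to 4235, 3698 and 3963 CPM (0.60 ± 0.05 SE; adjusted p = 1.79e-08). mt-Nd1, a complex I subunit, had 1813, 1861 and 1334 CPM against 3239, 2159 and 3231 CPM (adjusted p = 0.0225, and 0.0647 without SRC replicate 1). The FRC libraries were below the parental ones for mt-Cytb (3312, 3065 and 3198 CPM) and the SRC libraries above. At an unadjusted p below 0.05 edgeR found 0 of the nuclear and 0 of the mitochondrial members lower, and DESeq2 and limma with voom called 0 lower. Mitochondrial sequences have nuclear copies, and reads shared with those are not in the counts.

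Messages for matrix proteins changed in both directions. Of 32 tested matrix glycoproteins and proteoglycans 18 fell and 7 rose (78.1% called, against 33.5% of all tested genes; median −0.31), and their summed level was 7367 to 7910 CPM in the FRCs and 4905 to 5619 CPM in the SRCs. Tnc and Fn1 are described because they carry much of that sum, chosen after their values were seen. Tnc, the repair-associated glycoprotein tenascin C, fell 4.05-fold from 1200, 1707 and 1591 CPM to 344, 473 and 293 CPM (adjusted p = 0.000452). Fn1, fibronectin, fell 2.41-fold from 795, 1041 and 972 CPM to 329.8, 496 and 341 CPM (adjusted p = 0.0019). Further falls were those of Igfbp7 (7.78-fold), the microfibril protein gene Fbn1 (4.26-fold, from 40, 44.7 and 44.4 CPM to 9.09, 10.9 and 10.4 CPM) and the basement membrane gene Nid2 (4.16-fold). Among 21 tested collagen chains 9 fell and 6 rose (71.4% called), with Col26a1 (9.24-fold) and Col12a1 (2.6-fold) down and Col4a5 (6.31-fold) and Col13a1, a transmembrane collagen of the neuromuscular junction (4.51-fold, to 41, 43.2 and 40.2 CPM), up. Of 34 tested matrix proteases and inhibitors 15 fell and 8 rose (67.6% called). The gelatinase gene Mmp2 fell 3.6-fold from 139, 124 and 124 CPM to 35.8, 40.3 and 31.5 CPM (adjusted p = 8.44e-14), and Mmp28 rose 3.52-fold from 10.3, 6.99 and 6.98 CPM to 28.7, 30.8 and 25.6 CPM. Among 21 integrins and cadherins 6 rose and 6 fell (57.1% called), led by the integrin genes Itgb7 (3.98-fold higher) and Itga2 (3.31-fold lower).

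Several imprinted growth genes were lower in the SRCs. Of 23 tested imprinted genes 8 fell and 4 rose (52.2% called, against 33.5% of all tested genes). At least 2-fold, 6 fell and 1 rose, against 3.73% and 2.8% of all tested genes, and the median log2 difference was −0.02. Of the 23, 1 passed the filter on low counts only through the FRC libraries, which fixes its direction. Among the 22 that passed without them 7 fell, 5 of them at least 2-fold, and 4 rose. H19, a maternally expressed noncoding RNA abundant in myoblasts, fell 4.71-fold from 823, 583 and 722 CPM to 147, 164 and 139.8 CPM (−2.24 ± 0.12 SE; adjusted p = 1.24e-06). Its neighbour Igf2, the growth factor IGF-II, fell 13.8-fold from 2.35, 1.75 and 2.49 CPM to 0.0733, 0.154 and 0.228 CPM (adjusted p = 7.07e-07). Igf2 passed the filter on low counts only through the FRC libraries, which fixes its direction. Parental H19 was 1064, 1016 and 1083 CPM, above both groups, whereas parental Igf2 was 0.839, 0.612 and 0.923 CPM, between them. Mest, a paternally expressed hydrolase gene, fell 5.04-fold from 199.9, 112 and 141 CPM to 28.4, 25 and 36.3 CPM (adjusted p = 0.00073). Peg12 lies on chromosome 7 at 62461871 to 62464510, next to 2 more paternally expressed genes that were looked at after its value was seen. Mkrn3, at 62417593 to 62420139, fell 3.65-fold from 104 reads to 27 (adjusted p = 3.56e-05), and Ndn, at 62346569 to 62350262, had 15 reads in the FRCs and 0 in the SRCs, at least 4.79-fold lower (adjusted p = 0.00197).

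The insulin-like growth factor axis changed in 13 of its 16 tested members, 7 up and 6 down (81.25% called, against 33.5% of all tested genes). Of these, 9 changed at least 2-fold (5 up and 4 down, against 2.8% and 3.73% of all tested genes). Of the 16, 1 passed the filter on low counts only through the FRC libraries and 1 (Igfbp4) only through the SRC libraries, which fixes their direction. Igfbp2, a secreted binding protein of these factors, fell 7.92-fold from 335, 304 and 320.5 CPM to 36.6, 45.2 and 39.4 CPM (−2.98 ± 0.07 SE; adjusted p = 5.27e-18). Igf2bp3, an RNA-binding protein named for the Igf2 message, rose 9.72-fold from 8.25, 9.09 and 10.8 CPM to 88.9, 91.6 and 93.1 CPM (3.28 ± 0.08 SE; adjusted p = 5.31e-17). Igfbp4, another binding protein, had 3 reads in the FRCs and 58 in the SRCs, a ratio of 20.2 with a 95% counting interval of 6.57 to 100.7. Without FRC replicate 3 the ratio was 40.1 with an interval of 6.92 to 1611. The median log2 difference of the list was −0.0015, so rises and falls were balanced in it.

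Ligands and receptors of several signalling families changed in both directions. In the receptor tyrosine kinase list, which also holds Ngfr, 17 of 44 tested members rose and 12 fell (65.9% called, against 33.5% of all tested genes). Of the 44, 3 passed the filter on low counts only through the SRC libraries, Ngfr and Pdgfb among them, which fixes their direction. Flt1, a VEGF receptor, rose 8.49-fold from 9.77, 7.9 and 10.1 CPM to 76.6, 70.3 and 88.9 CPM (3.09 ± 0.10 SE; adjusted p = 6.75e-15), and Pdgfb, a ligand, rose 7.23-fold to 4.32, 2.7 and 3.57 CPM. Hgf, the ligand of Met and an activator of satellite cells, had 49 reads over the FRC libraries and 0 over the SRC libraries, at least 15.6-fold lower (adjusted p = 9.36e-06). Of 31 tested cytokine genes and receptors 10 rose and 7 fell (54.8% called). Tnfsf11, the cytokine RANKL, fell 24.4-fold from 74.4, 66.3 and 71.3 CPM to 2.64, 3.54 and 2.51 CPM (−4.61 ± 0.14 SE; adjusted p = 3.43e-13), with the parental cells at 80.5, 65.2 and 86.4 CPM. Il11, a cytokine of the IL-6 family, fell 7.38-fold from 11.4, 16.1 and 14.9 CPM to 2.05, 1.54 and 2.13 CPM.

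In the TGF-β, BMP and activin list 7 of 39 tested members rose and 12 fell (48.7% called, against 33.5% of all tested genes). Grem1, a secreted BMP antagonist, rose 7.76-fold from 0.757, 1.33 and 1.28 CPM to 9.01, 11.2 and 6.23 CPM (adjusted p = 1.46e-08). The BMP receptor gene Bmpr1b fell 13.8-fold and Inhba, an activin subunit, 4.2-fold. Of the 39, 1 (Inhba) passed the filter on low counts only through the FRC libraries, which fixes its direction. Among the 38 that passed without them 11 fell and 7 rose. Among 48 tested semaphorin, ephrin and guidance genes 13 rose and 16 fell (60.4% called), 10 falling without FRC replicate 3. Of the 48, 1 (Plxna4) passed the filter on low counts only through the SRC libraries, which fixes its direction. Besides Plxna4, Sema5a rose 3.79-fold to 91.4, 85.2 and 109 CPM, and the ephrin receptor gene Epha1 fell 8.74-fold from 51.3, 28.8 and 35.7 CPM to 4.1, 4.93 and 4.18 CPM. Of 28 tested Wnt genes 7 rose and 4 fell, and the 39.3% called were near the share of all tested genes. Of the 28, 1 passed the filter on low counts only through the FRC libraries and 1 (Wnt4) only through the SRC libraries, which fixes their direction. The ligand genes Wnt10b and Wnt4 rose 4.42-fold and 4.94-fold, and Wnt5a had 50 reads in the FRCs and 3 in the SRCs, a ratio of 16 with a 95% counting interval of 5.16 to 80.0. Without SRC replicate 2 the ratio was 32.3 with an interval of 5.53 to 1300.

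Across these lists the share of members called was mostly above the 33.5% of all tested genes, and the direction was one-sided only for some. In several lists a few members passed the filter on low counts only through the FRC or only through the SRC libraries, which fixes their direction. The lists differ in how strongly their genes are expressed, which bears on how many of them can be called, and no set test was made.

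**Figure D5:**
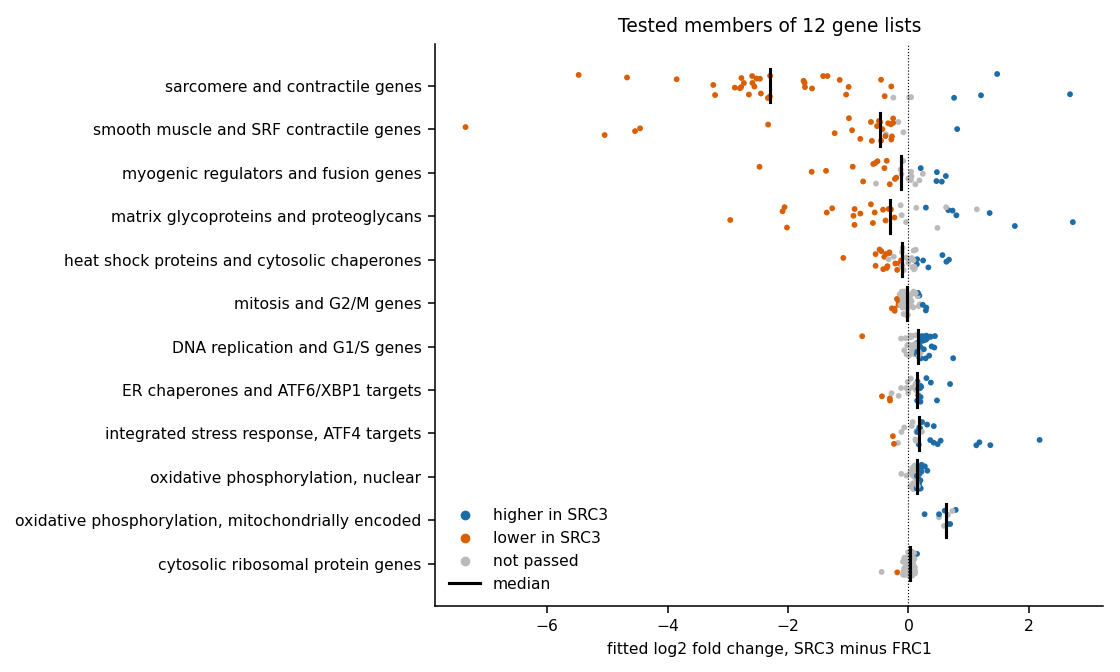
Each point is 1 tested member of 12 of the lists, placed on the horizontal axis by its fitted log2 fold change of cycle 3 SRCs (SRC3) minus cycle 1 FRCs (FRC1) and coloured by whether it rose, fell or did not pass at an adjusted p of 0.05, and the black bars are the medians. The medians run from −2.30 for the sarcomere list, 14 of whose 39 members were testable only through the FRC libraries, and −0.47 for the smooth muscle and SRF list to 0.15 for the nuclear and 0.63 for the mitochondrially encoded respiratory chain genes.

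The changes were spread over the genome. The median log2 difference of the tested genes of a chromosome ran only from −0.02 on chromosome 19 to 0.04 on the X, apart from the mitochondrial one. In 12020 overlapping runs of 25 neighbouring tested genes, the highest median was 0.30, in a run on chromosome 4 from Dmrta1 to Ror1 that starts beside Cdkn2b, with 9 genes up and 5 down. Its first gene, Dmrta1, could be tested only through the SRC libraries, which fixes its direction. The next highest were 0.25 on chromosome 7 from Pwwp2b to Rassf7 and 0.22 on chromosome 15 from Lrrk2 to Tmem106c. The lowest medians were −0.22 on chromosome 2 from Fam210b to Gm14325 and −0.21 in 2 runs of chromosome 11, one of which opens with the embryonic myosin gene Myh3.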

How the data were processed

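Poly(A) RNA of 9 samples was sequenced as single 50 nt reads from stranded TruSeq libraries (RNA integrity number 10, per the labels). The deposited values are raw read counts per gene that the authors made with HISAT2 2.1.0 and HTSeq 0.9.1 on GRCm38, per the submitters' processing notes; the counting options, strand included, were not given there or in the labels. HTSeq's tallies of unassigned reads were removed. Of 47729 gene identifiers, 47310 matched GENCODE M21, which gave symbols and positions, and 419 did not.

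Counts were fitted with edgeR 4.0.16 (R 4.3.3), over all 9 libraries and 3 groups, with TMM scaling (factors 0.9937 to 1.012), the filter filterByExpr (minimum count 10, total 15) and the robust quasi-likelihood test with 6 residual degrees of freedom; p-values were adjusted by Benjamini-Hochberg at 0.05. The common biological coefficient of variation was 0.0535. CPM are reads per 1000000 reads assigned to genes; ± is a standard error of a log2 difference. A group at 0 was set to 3 reads over the group for a bound, and groups with 1 to 3 reads were given as a ratio of counts with an exact 95% interval; both cover counting error only. On data simulated for this comparison (12343 genes), 54% of genes changed 1.25-fold, 77.6% of those changed 1.5-fold, 89.8% of those changed 2-fold and 95.9% of those changed 4-fold were recovered, and 22 of 12146 unchanged genes were called. Only 49 or 50 changed genes were tested at each fold there, far fewer than the 4199 called in the data. The adjustment is stricter when few genes change, so these rates need not hold here.

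The genes described and the gene lists were chosen with earlier results of these data known. The named genes were the 10 largest rises and falls without overlap that reached 5 CPM in a group, up to 6 genes without reads in a group, up to 4 members of each list with the largest changes at 1 CPM or more, a fixed set of myoblast and cell cycle markers, and genes within 1 Mb of Cdkn2a; others are marked as chosen after their values were seen, and a few genes that the rule names are not reported here. Alternatives were other scalings and filters, DESeq2 1.42.0, limma 3.58.1 with voom, a fit of the 6 libraries, a replicate block and leaving out each library.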

Additional observations from a re-analysis of the deposited data

How the results depend on the processing

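The count of genes changed was 4199 and stayed between 3372 (without FRC replicate 3) and 4387 (no filter on low counts) under 17 other settings, with 3602 in DESeq2, 4185 in limma with voom and 3595 in a fit of the FRC and SRC libraries alone. The number changed at least 2-fold was 819 and became 411 (180 higher and 231 lower) when only genes above 5 CPM in 3 libraries were kept, since that filter removes weakly expressed genes. Leaving out a library moved the 16 genes without reads in the SRCs to between 11 and 25, and the 4 without reads in the FRCs to between 2 and 8. These 2 counts were recomputed as a choice made after seeing the data. Of 168 called genes named by the rule, 159 kept their direction and their call under all 17 settings, and 9 lost the call under at least 1, among them Farsa, Eno2, Ndufa1, Dars, Hoxb5, Rpl32, Idi1 and mt-Nd1. Itga7 and Mki67 passed under some settings. Vcam1, which did not pass, ranged from −0.14 without FRC replicate 2 to 0.12 without FRC replicate 1, and was also above 0, at 0.02, without SRC replicate 3; the cause was not tested. Of 76 counts over lists, 52 stayed within 1.5 times of their value under all settings; the sarcomere count of 32 falls became 17 with the 5 CPM filter.

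With the replicate number as a block, 4221 genes were called, and mt-Nd1 was the named gene that lost its call (adjusted p = 0.0578) and Mki67 the one that gained it (adjusted p = 0.0332). Same-numbered SRC and FRC libraries did not deviate together (correlations of deviations 0.0324, −0.0552 and −0.0704), so the numbers were not taken as pairs. Weak messages limit the comparison: 1 library often decides the size of a fold below about 1 CPM, and reads shared by near-identical genes are missing from the counts.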

Other observations

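In the list of mesenchymal and connective tissue transcription factors 8 of 41 tested genes rose and 12 fell (48.8% called, against 33.5% of all tested genes). Runx3, a Runt family transcription factor, rose 4.44-fold from 2.95, 2.66 and 3.56 CPM in the FRCs to 13.5, 14.3 and 13 CPM in the SRCs (adjusted p = 1e-09). Foxf2, a forkhead factor of mesenchyme, fell 3.5-fold from 5.83, 6.85 and 6.62 CPM to 1.61, 2.08 and 1.82 CPM, and Ebf1 fell 3.46-fold. Immediate early genes fell in 10 and rose in 4 of 28 tested members (50% called; 7 rose without FRC replicate 2): Nr4a2, a nuclear receptor of that class, fell 5.32-fold from 48.8, 63 and 50.4 CPM to 10.9, 9.71 and 9.87 CPM (adjusted p = 2.07e-13), Dusp1, a MAP kinase phosphatase, fell 2.78-fold, and Egr3 rose 2.62-fold.

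Antigen presentation and interferon-stimulated genes rose in 10 and fell in 4 of 27 tested members (51.9% called, against 33.5% of all tested genes). Without FRC replicate 1 or 3, or without SRC replicate 1 or 3, 2 fell. Of the 27 tested members, 3 passed the filter on low counts only through the SRC libraries, which fixes their direction. Ifitm3, a membrane protein that restricts viral entry, rose 2.13-fold from 46.2 ± 3.08 to 98.3 ± 1.73 CPM (mean ± SD, n = 3) (adjusted p = 9.59e-12), Bst2, also called tetherin, rose 1.8-fold and the class I transactivator gene Nlrc5 2.06-fold. Within the Hox genes 7 of 24 rose and 6 fell (54.2% called), 3 rising without FRC replicate 1. Hoxb7 rose 1.82-fold from 10.8, 12.6 and 10.4 CPM to 20.3, 20.7 and 20.6 CPM (adjusted p = 7.34e-07), while Hoxb9 in the same cluster fell 6.02-fold from 3.33, 2.87 and 3.49 CPM to 0.44, 1 and 0.152 CPM, or 10.4-fold without SRC replicate 2. Among 50 tested genes of DNA methylation, Polycomb and silencing 14 rose and 5 fell (3 without SRC replicate 1), all by less than 2-fold, and the 38% called were near the share of all tested genes. Dnmt3a, a de novo DNA methyltransferase, fell 1.68-fold from 25.4, 20.1 and 22.7 CPM to 15.4, 11.2 and 13.8 CPM (adjusted p = 3.09e-05), Tet2, which oxidises methylcytosine, rose 1.53-fold from 11, 12 and 10.8 CPM to 16.9, 16.5 and 18.4 CPM (adjusted p = 8.02e-05), and Phf19, a Polycomb-associated protein, rose 1.88-fold.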
